A study of Mus musculus with 4 samples.

Results

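The SoxB and SoxC genes other than Sox2 were examined in E14 mouse embryonic stem (mES) cells after depletion of Zfp322a by RNAi. Members were all probe sets of the array whose single gene symbol in the platform annotation was Sox1, Sox3, Sox21, Sox4, Sox11 or Sox12, which gave 23 probe sets of 6 genes, out of 45037 probe sets and 18193 genes in all. The series held 2 arrays of Zfp322a RNAi cells, transfected with a plasmid that expresses an shRNA against Zfp322a, and 2 arrays of control RNAi cells, which the labels call mock RNAi and describe as transfected with pSuper.puro. All 4 samples were E14 cells, an established mES cell line, grown with serum and leukaemia inhibitory factor (LIF), and were kept under puromycin for 3 days per the labels. The methods describe a longer selection for array samples. The study designed shRNAs against different regions of Zfp322a, and the labels do not say which was used for the arrays. Cells were pools selected for the plasmid, and no source says whether replicates were grown as separate cultures. The p-values therefore rest on the spread between these 4 samples only, which may be technical.

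Sox proteins are transcription factors that bind DNA through an HMG box and often act with a partner factor. The SoxB1 proteins Sox1, Sox2 and Sox3 keep neural progenitors undifferentiated, and Sox2 pairs with Oct4 in mES cells. Sox21, a SoxB2 protein, acts as a repressor and counters SoxB1 activity in the chick neural tube. The SoxC proteins Sox4, Sox11 and Sox12 are activators, and Sox4 and Sox11 promote the expression of pan-neuronal genes as progenitors become neurons. Sox1 marks the neuroectoderm in differentiating mES cells.

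The promoters of the SoxC genes are shown first, because these related genes moved in opposite directions. The RefSeq promoter table held 5 of the 6 members, and Sox3 was the member without an entry. The sequences are the 250 bases upstream of the RefSeq transcription start in build GRCm38.p6, all on the minus strand and written 5′ to 3′ along the gene, at chr13:28953700-28953949 for Sox4, chr12:27342719-27342968 for Sox11 and chr2:152398047-152398296 for Sox12. Capitals mark CCAAT boxes (CCAAT or its reverse complement ATTGG) and, in Sox12, the octamer ATGCAAAT that POU factors such as Oct4 bind.
Sox4: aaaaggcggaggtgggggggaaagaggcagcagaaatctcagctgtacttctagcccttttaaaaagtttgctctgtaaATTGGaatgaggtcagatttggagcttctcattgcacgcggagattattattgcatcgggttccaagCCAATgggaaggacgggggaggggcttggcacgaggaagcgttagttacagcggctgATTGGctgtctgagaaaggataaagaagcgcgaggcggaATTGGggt
Sox11: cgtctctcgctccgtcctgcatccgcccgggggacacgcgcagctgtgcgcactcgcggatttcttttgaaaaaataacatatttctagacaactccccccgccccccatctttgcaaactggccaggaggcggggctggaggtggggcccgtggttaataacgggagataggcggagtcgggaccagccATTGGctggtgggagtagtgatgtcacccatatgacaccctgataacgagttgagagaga
Sox12: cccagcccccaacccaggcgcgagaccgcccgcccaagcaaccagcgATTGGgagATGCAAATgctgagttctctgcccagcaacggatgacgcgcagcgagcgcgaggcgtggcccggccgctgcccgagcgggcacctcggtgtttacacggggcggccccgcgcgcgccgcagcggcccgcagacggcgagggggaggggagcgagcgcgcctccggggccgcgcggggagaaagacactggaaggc

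Motifs were searched on both strands from 250 bases upstream to 50 bases downstream of the start. The Sox4 window held 4 CCAAT boxes, the Sox11 window 1, the Sox12 window 1 and the Sox1 window 1. At least 1 CCAAT box was present in 37.4% of all 32851 promoter windows of the table. The octamer ATGCAAAT, present in 1.74% of windows, was found 195 to 188 bases upstream of the Sox12 start. It was also found in the Sox1 window, 18 to 25 bases downstream of the start. The GC box GGGCGG, found in 35.7% of windows, had 3 matches in Sox1, 2 in Sox11 and 4 in Sox12. A pair of the Sox12 GC boxes overlapped each other, and no match overlapped another kind of motif. No member's window held the TATA box TATAAA (13.6% of windows) or the SOX core AACAAT (10.7% of windows). The Sox21 window held none of the 5 motifs. The GC content was 70.7% for Sox1, 65.7% for Sox21, 52.0% for Sox4, 58.7% for Sox11 and 76.7% for Sox12, against a median of 52.7% over all windows. A match is a description of these letters and was not tested for binding.

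**Figure D1:**
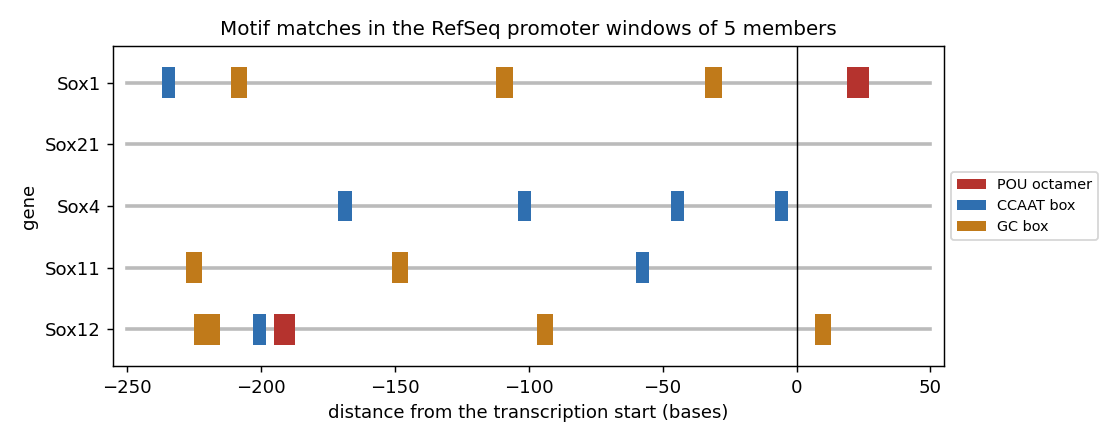
Motif matches in the promoter windows of 5 members (rows), with the distance from the RefSeq transcription start in bases on the x axis and the start at the black line. Blue bars are CCAAT boxes, orange bars GC boxes and red bars the POU octamer, which appears in the Sox12 window and, downstream of the start, in the Sox1 window, while Sox21 has no match.

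The targeted gene and the cell identity were checked before the Sox genes. Zfp322a had log2 RMA values of 7.53 and 7.13 on the Zfp322a RNAi arrays, against 8.75 and 8.84 on the control RNAi arrays, on its brightest probe set (1439035_at), and 36.2% of the control level was left. The other Zfp322a probe set (1452374_at) left 27.4%. The mES cell markers were present in both groups, with Pou5f1 at 12.50 and 12.51 in Zfp322a RNAi cells and at 12.53 and 12.59 in control RNAi cells, and Nanog at 12.88 and 12.82 in Zfp322a RNAi cells and at 12.93 and 12.82 in control RNAi cells. Pearson's r over all probe sets was 0.998 within the groups and 0.989 to 0.990 between them.

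At least 1 probe set passed the test in 5 of the 6 SoxB and SoxC genes, where 31.2% of all 18193 genes had one, and the directions differed between genes. A gene with more probe sets has more chances to be counted by that rule, and on the brightest probe set of each gene 3 of the 6 passed (Sox3, Sox11 and Sox12). Sox11 was higher on 4 of its 6 probe sets, Sox3 and Sox21 were higher on 1 of 2 probe sets each, Sox12 was lower on 2 of 3 and Sox4 on 2 of 8. Neither probe set of Sox1 passed the test. In all, 10 of 23 member probe sets (43.5%) passed an adjusted p of 0.05 with limma (Benjamini-Hochberg over all probe sets), where 20.1% of all probe sets did. Of these, 6 member probe sets (26.1%) were higher in Zfp322a RNAi cells, where 10.6% of all probe sets were, and 4 (17.4%) were lower, where 9.47% were. The median change of the member probe sets was -0.03 on the log2 scale, the same as that of all probe sets (-0.03). With any 1 of the 4 arrays left out, 0 of all 45037 probe sets passed the adjusted p with limma in either direction, Zfp322a included, and the lowest adjusted p of any probe set was 0.110 to 0.138. Such a fit takes the spread from the group that keeps 2 arrays and assumes that the lone array varies likewise, so the loss of every call there says nothing about single genes. At an unadjusted p under 0.05 there were 10572 to 11509 probe sets in these fits, 10 to 12 of them members, against 14717 and 13 with all arrays. Below, only the size of a change without 1 array is given. In these bulk samples, fewer cells of a type and less RNA per cell cannot be told apart.

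**Figure D2:**
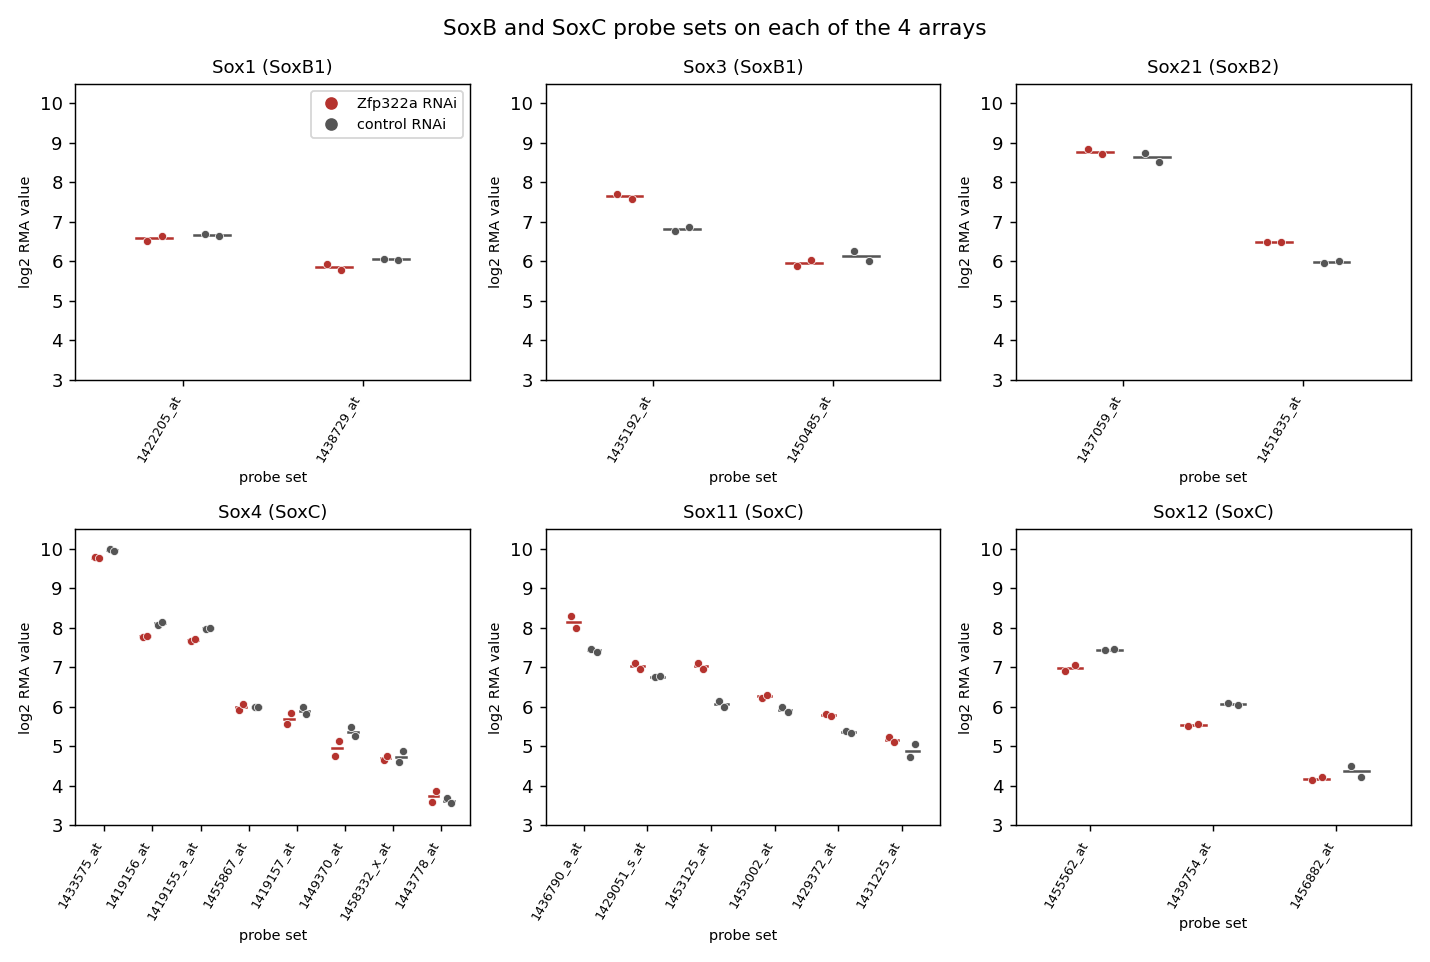
Log2 RMA value (y axis) of each member probe set (x axis) on the 4 arrays, 1 panel per gene. Red points are the 2 Zfp322a RNAi arrays, grey points the 2 control RNAi arrays and short lines the group means. Red lies above grey for all 6 Sox11 probe sets and below grey for all 3 Sox12 probe sets.

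For 17 of the 23 member probe sets the Zfp322a RNAi arrays were either both above or both below the control RNAi arrays, and this held for 57.5% of all probe sets. Of these 17, 8 were higher and 9 lower in Zfp322a RNAi cells, and 7 of them did not pass the adjusted p. By a 1.5-fold change alone, with no test, 3 member probe sets were higher, 1 of Sox3 and 2 of Sox11, where 4.67% of all probe sets were. By the same criterion 0 member probe sets were lower, where 2.64% of all probe sets were. Of the 10 probe sets that passed limma, 8 had a mean at or above the median of all probe sets (6.09) and 2 lay below it.

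The SoxB1 genes were examined first. Sox3 (Entrez 20675, chromosome X, 60891366 to 60893430 in GRCm38.p6) had values of 7.71 and 7.59 in Zfp322a RNAi cells, against 6.78 and 6.86 in control RNAi cells, on probe set 1435192_at. Both Zfp322a RNAi arrays lay above both control arrays. The means were 7.65 ± 0.08 in Zfp322a RNAi cells and 6.82 ± 0.06 in control RNAi cells (SD, n = 2 each), a change of 0.83 ± 0.08 (standard error, as after every change below), or 1.78-fold (adjusted p = 0.00258 with limma). The second Sox3 probe set, 1450485_at, gave 5.87 and 6.03 in Zfp322a RNAi cells, against 6.26 and 6.02 in control RNAi cells. Here the groups overlapped and no difference was detected (-0.19, 95% confidence interval -0.46 to 0.08, adjusted p = 0.302 with limma). The probe sets of Sox3 therefore differed by 1.02 in their change. This pair was chosen after the values were seen. Its exact permutation p (two-sided) was 0.333, the smallest that 2 arrays against 2 allow, so the test cannot decide whether they differ. The mean of both probe sets rose by 0.32 (adjusted p = 0.0158 with limma over genes). Without any 1 of the 4 arrays, the change on 1435192_at lay between 0.77 and 0.89.

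Sox1 (Entrez 20664, chromosome 8, 12395519 to 12399555), the SoxB1 gene used as a marker of neuroectoderm, gave 6.52 and 6.64 in Zfp322a RNAi cells, against 6.69 and 6.65 in control RNAi cells, on probe set 1422205_at. Its other probe set, 1438729_at, gave 5.92 and 5.79 in Zfp322a RNAi cells, against 6.06 and 6.04 in control RNAi cells. On both probe sets the Zfp322a RNAi arrays lay below the control arrays by a small margin, and neither difference passed the test (-0.09 and -0.20, adjusted p = 0.514 and 0.167 with limma). The 95% confidence intervals, -0.29 to 0.11 and -0.40 to 0.01, leave out a rise as large as that of Sox3 on 1435192_at.

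For Sox21 (Entrez 223227, chromosome 14, 118233233 to 118237030), the SoxB2 member, the probe sets differed in size of change. Probe set 1451835_at gave 6.50 and 6.50 in Zfp322a RNAi cells, against 5.97 and 6.01 in control RNAi cells, with no overlap of the groups. The change was 0.51 ± 0.08, or 1.42-fold (adjusted p = 0.00717 with limma). The brighter probe set, 1437059_at, gave 8.84 and 8.72 in Zfp322a RNAi cells, against 8.75 and 8.52 in control RNAi cells, where the groups overlapped (0.15, 95% confidence interval -0.11 to 0.40, adjusted p = 0.405 with limma). The difference between the changes of these probe sets was 0.36. Its exact permutation p was 0.333 (two-sided), the smallest possible, for a pair also chosen after the values were seen, so it decides nothing. With the mean of both probe sets Sox21 rose by 0.33 (adjusted p = 0.0175 with limma over genes). The change on 1451835_at stayed between 0.49 and 0.53 without any 1 of the 4 arrays.

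**Figure D3:**
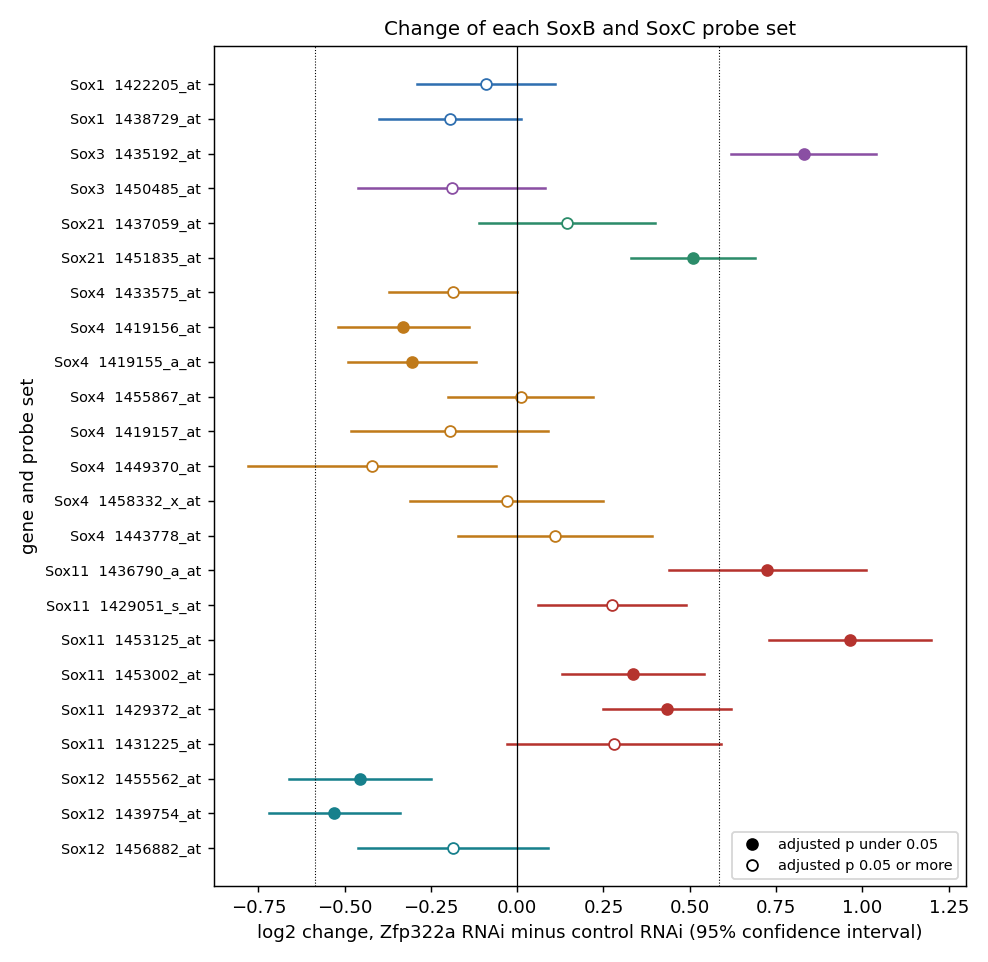
Log2 change of each of the 23 member probe sets (Zfp322a RNAi minus control RNAi, x axis) with its 95% confidence interval from limma. Rows are probe sets, coloured by gene and ordered by control level within a gene. Filled points passed an adjusted p of 0.05, dotted lines mark 1.5-fold, and 3 points (1 of Sox3, 2 of Sox11) lie beyond them.

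Among the SoxC genes, Sox11 lies on chromosome 12 (Entrez 20666, 27334268 to 27342718). All 6 of its probe sets were higher in Zfp322a RNAi cells with no overlap of the groups, by 0.28 to 0.96 with a median of 0.38. The brightest, 1436790_a_at, gave 8.31 and 8.0 in Zfp322a RNAi cells, against 7.47 and 7.39 in control RNAi cells. This was a rise of 0.72 ± 0.12, or 1.65-fold (adjusted p = 0.00975 with limma). The rise was largest on 1453125_at, which gave 7.11 and 6.97 in Zfp322a RNAi cells, against 6.16 and 5.99 in control RNAi cells, or 1.95-fold (0.96 ± 0.10, adjusted p = 0.00250 with limma). Probe set 1429372_at rose 1.35-fold, with 5.81 and 5.78 in Zfp322a RNAi cells and 5.39 and 5.33 in control RNAi cells (adjusted p = 0.0126 with limma). Probe set 1453002_at rose 1.26-fold, with 6.23 and 6.31 in Zfp322a RNAi cells and 6.00 and 5.87 in control RNAi cells (adjusted p = 0.0422 with limma). The remaining probe sets, 1429051_s_at (0.28) and 1431225_at (0.28), did not pass (adjusted p = 0.0796 and 0.186 with limma), and 1429051_s_at passed once dim probe sets were left out (0.0291). Without any 1 of the 4 arrays the change on 1436790_a_at lay between 0.57 and 0.88, and that on 1453125_at between 0.88 and 1.05.

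Sox12 (Entrez 20667, chromosome 2, 152393611 to 152398046) moved the other way. Its brightest probe set, 1455562_at, gave 6.92 and 7.06 in Zfp322a RNAi cells, against 7.43 and 7.46 in control RNAi cells, and 73.0% of the control level was left (-0.46 ± 0.08, adjusted p = 0.0150 with limma). Probe set 1439754_at gave 5.52 and 5.57 in Zfp322a RNAi cells, against 6.10 and 6.05 in control RNAi cells, and 69.3% was left (-0.53 ± 0.08, adjusted p = 0.00687 with limma). The dimmest, 1456882_at, gave 4.15 and 4.22 in Zfp322a RNAi cells, against 4.51 and 4.23 in control RNAi cells, and did not pass (adjusted p = 0.315 with limma). All 3 probe sets were lower in Zfp322a RNAi cells without overlap, though on the dimmest the groups were 0.01 apart. The falls lay between -0.52 and -0.38 on 1455562_at and between -0.55 and -0.50 on 1439754_at without any 1 of the 4 arrays.

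Sox4 (Entrez 20677, chromosome 13, 28948919 to 28953699) had 8 probe sets, of which 6 had a change below 0. Probe set 1419156_at gave 7.78 and 7.79 in Zfp322a RNAi cells, against 8.07 and 8.16 in control RNAi cells (-0.33 ± 0.08, adjusted p = 0.0333 with limma). Probe set 1419155_a_at gave 7.66 and 7.72 in Zfp322a RNAi cells, against 7.98 and 8.01 in control RNAi cells (-0.31 ± 0.08, adjusted p = 0.0395 with limma). On these probe sets 79.6% and 80.9% of the control level was left. The brightest, 1433575_at, gave 9.79 and 9.77 in Zfp322a RNAi cells, against 9.99 and 9.94 in control RNAi cells. The groups did not overlap there but the fall, to 88.0% of the control level, did not pass (adjusted p = 0.153 with limma), except with a variance trend (0.0337). The other 5 probe sets, all with means below the median of all probe sets, ranged from -0.42 to 0.11 and did not pass. The call of 1419155_a_at ended once each array's median was subtracted (adjusted p = 0.0560 with limma). Without any 1 of the 4 arrays, 1419156_at lay between -0.37 and -0.28 and 1419155_a_at between -0.33 and -0.27.

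The change of Sox11 exceeded that of Sox12 by 1.18 and that of Sox4 by 0.91 on the brightest probe sets. Both differences lay at the smallest exact permutation p that the design allows (0.333, two-sided). These were 2 of 4 such differences, chosen after the values were seen, and all had the same p (0.333 adjusted over the 4). For the genes taken by their brightest probe set, 2 members were higher (Sox3 and Sox11) and 1 was lower (Sox12), where 12.2% of all 18193 genes were higher and 11.5% lower. Levels of different member genes were not set against each other, since the brightness of a probe set depends on its probes.

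Sox2, the SoxB1 gene that mES cells depend on, showed no detectable difference on its 1 probe set (1416967_at). It gave 12.69 and 12.62 in Zfp322a RNAi cells, against 12.76 and 12.52 in control RNAi cells, with a change of 0.02 (95% confidence interval -0.24 to 0.27, adjusted p = 0.943 with limma). Among the 14 other Sox genes, Sox2 included, the test on the brightest probe set gave 2 that rose, 1 that fell and 11 that did not pass. Over all genes 12.2% rose and 11.5% fell by the same test, so these counts were near the background. Sox7 rose 1.62-fold (5.93 and 5.44 in Zfp322a RNAi cells, 5.01 and 4.96 in control RNAi cells) and Sox17, an endoderm regulator, 1.25-fold (6.17 and 6.27 in Zfp322a RNAi cells, 5.86 and 5.93 in control RNAi cells). Sox15, which is expressed in mES cells and can bind with Oct4 in place of Sox2, fell to 64.8% of the control level (6.71 and 6.77 in Zfp322a RNAi cells, 7.32 and 7.41 in control RNAi cells). The adjusted p was 0.0286 for Sox7, 0.0400 for Sox17 and 0.00475 for Sox15 with limma. The change of Sox7, 0.70 with all arrays, was 0.46 without Zfp322a RNAi replicate 1 and 0.95 without Zfp322a RNAi replicate 2. A dimmer Sox7 probe set did not pass (-0.16), and neither did the mean of both (0.27, adjusted p = 0.130 with limma). Sox17 did not pass with a variance trend (adjusted p = 0.0503 with limma). Its dimmer probe set, which is open to cross-hybridization, rose 2.37-fold. Over all their probe sets, 3 of 30 were higher and 1 lower, where 10.6% and 9.47% of all probe sets were.

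**Figure D4:**
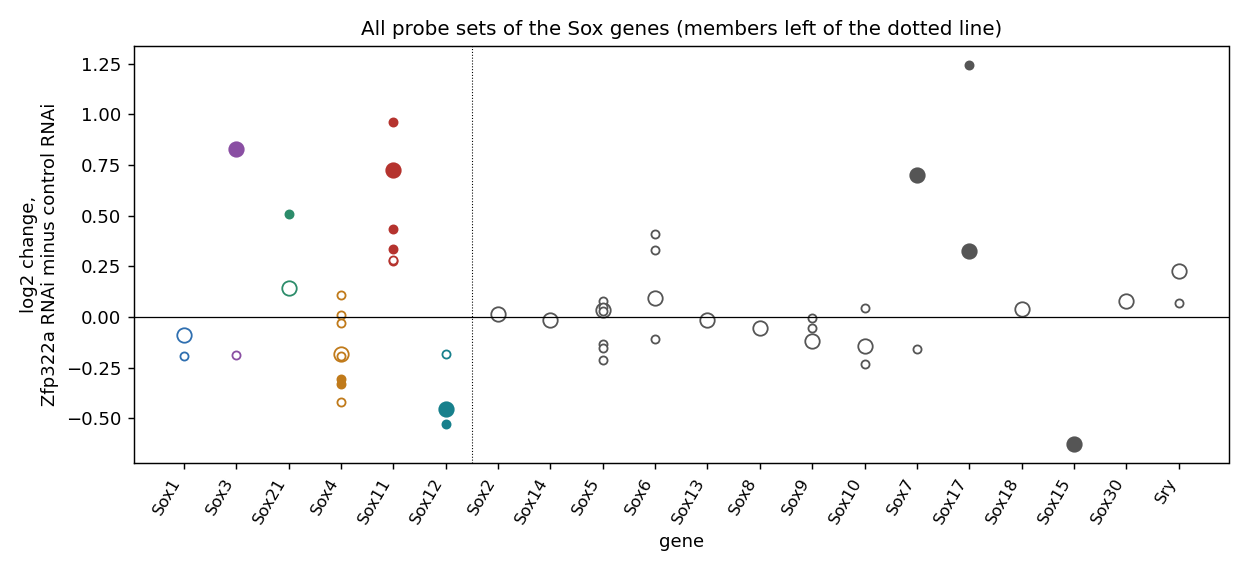
Log2 change (Zfp322a RNAi minus control RNAi, y axis) of every probe set of each Sox gene (x axis), with the 6 members left of the dotted line. Large points are the brightest probe set of a gene and filled points passed an adjusted p of 0.05. Members range from -0.53 (Sox12) to 0.96 (Sox11), and Sox2 lies at 0.02.

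Genes that act with Sox proteins, or that they control, were taken from lists chosen with earlier results of these data known, 1 probe set per gene. For comparison, over all genes 12.2% rose, 11.5% fell and the median change was -0.04, and with lists this small a count of 1 or 2 is near that share. As for all probe sets, no call in these lists or in the marker lists remained without any 1 of the 4 arrays. Of 11 POU, PAX and other partner factors measured, 2 rose, 0 fell and 9 did not pass (median 0.06). Under some other settings Sall4 also rose (0.22 to 0.32). Pax6 rose for the mean of probe sets (0.32), while its brightest probe set went the other way without passing (-0.15, adjusted p = 0.294 with limma). Chd7 fell under 3 of the other settings (-0.26). Pou3f3, a POU factor of the developing brain, rose 1.93-fold and Pou4f1, a POU factor of sensory neurons, 1.30-fold (adjusted p = 0.00251 and 0.0443 with limma). Of 7 Oct4 and Sox2 target genes of mES cells, 0 rose, 1 fell and 6 did not pass (median -0.06). The one that fell was Utf1, with 9.58 and 9.68 in Zfp322a RNAi cells, against 10.24 and 10.32 in control RNAi cells (adjusted p = 0.00459 with limma). Fgf4 fell too with a variance trend (-0.24), with dim probe sets left out (-0.24) and for the mean of probe sets (-0.27).

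The neural progenitor list had 21 measured genes, with 6 that rose, 1 that fell and 14 that did not pass (median 0.12). The N-cadherin gene Cdh2 rose 3.51-fold, Zic2 2.57-fold, the forebrain regulator Lhx2 1.72-fold and Zic1 1.60-fold (adjusted p 0.00146 to 0.0110 with limma). The Notch receptor gene Notch1 and the Notch target Hes1 also rose, and Prom1 fell. Notch1 (adjusted p = 0.0415 with limma) did not pass after repeated quantile normalization (0.0607) or for the mean of probe sets (0.0619). Under some other settings Dll1 and Hes5 rose and Msi1 fell. Pax6, which is also a partner factor, rose only for the mean of probe sets. The intermediate filament gene Nes, a SoxB1 target in neural progenitors, did not pass (0.12, adjusted p = 0.364 with limma). Of 15 genes in the pan-neuronal list, 3 rose, 0 fell and 12 did not pass (median 0.10). The 3 that rose were Gap43, a growth cone gene (2.70-fold), the neurofilament gene Ina (1.66-fold) and Tubb3, a neuronal tubulin gene that Sox11 can activate (1.57-fold). Their adjusted p was 0.00124 to 0.00455 (limma). Under each of 5 other settings 2 genes of this list fell, which were Tead2 in every case, with Nefl or, for the mean of all probe sets, Elavl3. Tead2 encodes a TEAD factor and is not a marker of neurons, though the list holds it. With dim probe sets left out, Elavl4 and Ncam1 also rose, so that 5 genes rose rather than 3. The neuronal genes Dcx (-0.09) and Map2 (-0.09) did not pass (adjusted p = 0.546 and 0.494 with limma).

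Markers of the cell types that a culture could hold moved as follows. Of 9 mES cell markers, 0 rose, 3 fell (Utf1, Tdgf1 and Esrrb) and 6 did not pass. The changes of those 6 (Pou5f1, Nanog, Zfp42, Sox2, Dppa5a and Fgf4) ranged from -0.24 to 0.06. Of 5 neural crest markers, 1 rose (Snai2) and 0 fell. Snai2 was read on a probe set open to cross-hybridization, and 0 rose once such probe sets were left out. Of 6 endoderm markers 3 rose (Gata6, Foxa2 and Sox17) and 0 fell, and of 7 fibroblast and feeder markers 0 rose and 2 fell (Pdgfrb and Thy1). The sums that follow add linear levels of different probe sets, so they weigh bright probe sets most. A gene's share of a sum therefore depends on its probes too. The summed level of the 15 genes in the pan-neuronal list, Tead2 included, was 5070 to 5160 on the Zfp322a RNAi arrays and 4450 to 4680 on the control RNAi arrays. Stmn2, which did not pass the test, made up 57.7% to 60.6% of it, and without Stmn2 it was 2110 to 2180 on the Zfp322a RNAi arrays and 1800 to 1840 on the control RNAi arrays. That of the 21 neural progenitor genes was 7640 to 8500 on the Zfp322a RNAi arrays and 7050 to 7300 on the control RNAi arrays. Vim, which did not pass either, made up 43.5% to 48.5%, and without Vim the sum was 4310 to 4460 on the Zfp322a RNAi arrays and 3740 to 3760 on the control RNAi arrays. For the endoderm markers it was 541 to 554 in Zfp322a RNAi cells and 362 to 379 in control RNAi cells (without Gata6, 292 to 298 in Zfp322a RNAi cells and 272 to 280 in control RNAi cells), and for the fibroblast and feeder markers 351 to 354 in Zfp322a RNAi cells and 486 to 493 in control RNAi cells. For the mES cell markers it was 54300 to 54400 in Zfp322a RNAi cells and 59700 to 61200 in control RNAi cells, and for the neural crest markers 638 to 640 in Zfp322a RNAi cells and 615 to 620 in control RNAi cells. The higher neural crest sum rests on Snai2 alone, since the other neural crest markers had log2 changes of -0.145 to -0.025. The values of 4 of the 6 endoderm markers, 5 of the 7 fibroblast and feeder markers, 9 of the 21 neural progenitor genes and 6 of the 15 genes in the pan-neuronal list averaged below the median of all probe sets. Some markers are also in lists given above. Utf1, Pou5f1, Nanog and Fgf4 are Oct4 and Sox2 targets, Pou5f1 is also a partner factor, and Sox2, Sox10 and Sox17 are among the other Sox genes. The part of these cell types in the changes of the SoxB and SoxC genes was not tested.

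**Figure D5:**
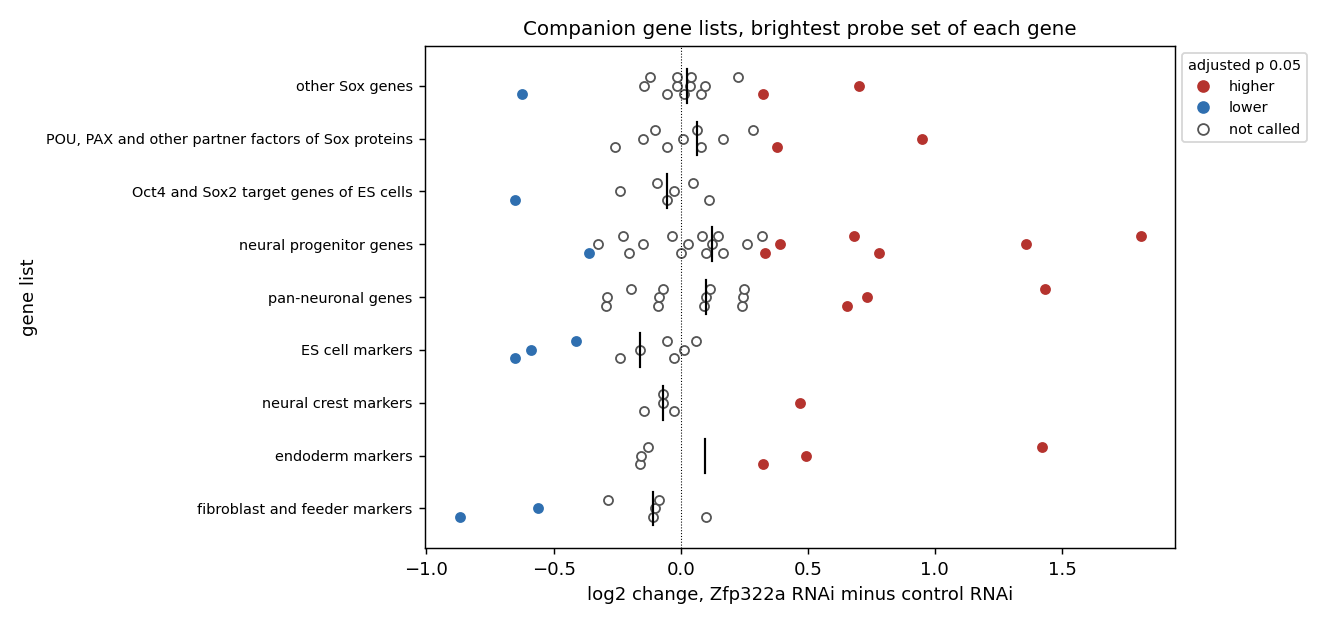
Log2 change (Zfp322a RNAi minus control RNAi, x axis) of each gene of 9 lists (rows) on its brightest probe set. Red points were higher and blue points lower at an adjusted p of 0.05, open points did not pass, and black lines are list medians, which lie between -0.16 (mES cell markers) and 0.12 (neural progenitor genes).

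The genes with the most similar profile over the 4 arrays were sought for the 3 members called on their brightest probe set. Only probe sets of other genes that had a gene symbol and passed the adjusted p were compared (7820 to 7823 for each member). Likeness was the root mean square difference of the values after the control mean was subtracted. For Sox3 the nearest were Bmpr1a (0.00866 log2 units) and Spag9 (0.0132), and for Sox11 they were Cd55 (0.0112) and Sntb2 (0.0132). For Sox12 they were Cacna2d2 (0.00500) and Tbc1d13 (0.0112). Over 4 arrays such small differences describe equal sizes of change and no more.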

How the data were processed

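Total RNA of 4 samples of E14 cells was hybridised to Affymetrix mouse expression arrays, 1 array per sample. The deposited values are log2 levels per probe set, which the authors obtained with RMA (background correction, quantile normalization between arrays and summary over probes, version not given in the sources used here). They were used as deposited. The log2 scale was read from their range (2.62 to 14.61), and array medians lay between 6.07 and 6.11. RMA equalises the arrays, so that a shift of all genes would not show. The number of arrays limits the precision (median standard error of a change 0.09).

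Groups came from the sample titles. Of 45037 probe sets, 34945 had 1 gene symbol, 932 several and 9160 none. Symbols of the lists were updated through the RefSeq gene table (GRCm38.p6), which matched 34741 probe sets, and coordinates and promoters are from RefSeq tables of that build. No genome build applies to the array values.

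Zfp322a RNAi was compared with control RNAi across all probe sets with limma 3.58.1 in R 4.3.3 by lmFit and eBayes. The model held the group alone and left 2 residual degrees of freedom. Tests were two-sided, and p-values were adjusted over all probe sets by Benjamini-Hochberg, with a threshold of 0.05. Every adjusted p is from limma. Where a gene needed 1 probe set, that with the highest mean was taken. The procedure was tested on simulated data, where it recovered most but not all of the largest changes, and the recovery required of it was set after a first run had missed a few. The members and lists were chosen with earlier results of these data known. Named genes are all member probe sets, Sox2, Zfp322a, other Sox genes past the threshold, up to 4 genes with the largest changes among those past it in each list, mES cell markers, and the 2 genes nearest in profile to each called member. Notch1, Hes1, Prom1, Nes, Dcx, Map2, Chd7, Tead2, Nefl, Elavl3, Stmn2 and Vim were named after their values were seen. So were Sall4, Pax6, Dll1, Hes5, Msi1, Elavl4 and Ncam1, and Sox10 was named because lists share it. Alternatives were array centring, repeated quantile normalization, other variance models, filters on dim or cross-hybridizing probe sets, other summaries per gene, a replicate block and leaving out each array. The methods' 1.5-fold criterion without a test was counted too.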

Additional observations from a re-analysis of the deposited data

How the results depend on the processing

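The replicate numbers of the titles were not taken as pairs. Deviations of same-numbered arrays from their group means correlated at 0.056 over all probe sets. With 2 arrays a group, this value cannot decide whether same-numbered arrays share a batch that affects some genes. With the number as a replicate block, 0 member probe sets and 0 of all probe sets passed in either direction with limma (2 member genes higher and 1 lower became 0), and 11 member probe sets and 13586 of all probe sets had an unadjusted p under 0.05. That fit has 1 residual degree of freedom, against 2 without the block. When each array was left out in turn, the counts of member probe sets, member genes and all probe sets past the adjusted p were 0 to 0 in both directions, with 10572 to 11509 probe sets at an unadjusted p under 0.05. Values of the 10 called member probe sets kept their direction and moved by less than 1.5 times without any 1 array. At the 1.5-fold rule without a test, 3 member probe sets were higher and 0 lower, and 2104 of all probe sets were higher and 1190 lower, against 4774 and 4266 with limma. With a variance trend, 2 member genes were lower by their brightest probe set (Sox12 and Sox4), against 1. Under array centring, repeated quantile normalization, robust variances, the filter on dim probe sets and the removal of probe sets open to cross-hybridization, both counts of member probe sets stayed within 1.5 times; 11 of the 23 fell under the dim filter and had no value there. When the probe sets of a gene were averaged, the change of Sox3 was 0.32, against 0.83 on its brightest probe set, Sox21 passed (0.33) and no called gene changed direction. Among the lists, the genes of the pan-neuronal list that fell were 2 rather than 0 under repeated quantile normalization, a variance trend, the dim filter, 1 probe set per gene and the mean of probe sets. Those that rose were 5 rather than 3 with the dim filter. The other Sox genes that rose were 1 rather than 2 with a variance trend or the mean of probe sets, and 0 with the dim filter, which left Sox7 and Sox17 without a value. The partner factors that rose were 4 rather than 2 with the mean of probe sets, and the ES cell markers that fell were 5 rather than 3 with a variance trend. Oct4 and Sox2 targets that fell were 2 rather than 1 with a variance trend, the dim filter or the mean of probe sets. The neural crest markers that rose were 0 rather than 1 without probe sets open to cross-hybridization, which left Snai2 without a value. The endoderm markers that rose were 1 rather than 3 with the dim filter, and all list counts were 0 with the replicate block or without any 1 array.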
